A study of Arabidopsis thaliana with 18 samples.

Results

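The core autophagy machinery outside the ATG8 family was followed as 10 genes in rosettes of Arabidopsis thaliana: ATG2, ATG3, ATG5, ATG6, ATG7, ATG9, ATG10, ATG12B, ATG18A and the receptor NBR1. They were selected by locus identifier out of 32744 genes counted, and all 10 were among the 18358 genes that passed the filter on low counts. The libraries came from the era1 mutant, labelled as a T-DNA knock-out, and from wild type plants (WT). Plants of both genotypes grew in potting soil and received 0, 2 or 10 mM nitrate, and rosettes were taken at Boyes stage 5.10, with 3 libraries in each of 6 groups. The groups were era1 at 0, 2 and 10 mM and WT at 0, 2 and 10 mM. The gene ERA1 codes for the beta subunit of the enzyme that attaches farnesyl lipids to proteins. The series text calls the replicates biological, but nothing states that they came from separate plants or pots, so p-values measure the spread between these samples.

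Autophagy encloses cytoplasm in a membrane vesicle, the autophagosome, which delivers its cargo to the vacuole for breakdown. A kinase complex and a phosphatidylinositol 3-kinase complex start the vesicle, lipid-transfer and membrane proteins enlarge it, and a conjugation cascade attaches the ubiquitin-like ATG8 to its lipids. In leaves the pathway recycles chloroplast and other proteins, and it is known for its part in nitrogen remobilisation and in survival of nitrogen starvation.

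Gene counts ran from 4748044 to 6306900 per library, and the 10 genes together took 1622 to 3060 counts. Levels are read counts normalised to library size (CPM) after TMM scaling, and since the kit counts tags at the 3′ end, they are compared within a gene. ERA1 (AT5G40280) had 1.92, 2.73 and 2.21 CPM in era1 at 0 mM, against 9.62, 10.2 and 8.68 CPM in WT at 0 mM. It was lower in era1 at every dose, with log2 fold changes of -2.04, -2.33 and -2.71 at 0, 2 and 10 mM. A different locus, AT5G66470, stands in the label of the mutant; it was lower in era1 at 0 mM (-0.69 ± 0.15) and had -0.28 at 2 mM and -0.12 at 10 mM, neither past the threshold. The morning clock gene CCA1 averaged 277 ± 16.4, 14.2 ± 1.44 and 97.7 ± 4.29 CPM in era1 and 245 ± 11.3, 15.4 ± 0.493 and 102 ± 5.97 CPM in WT at 0, 2 and 10 mM (SD, n = 3 each). CCA1 thus moved with the nitrate dose in both genotypes. It also passed the threshold as higher in era1 than in WT at 0 mM, which was lost in 7 of 18 refits without a single library (log2 0.13 to 0.19). LHY, another morning clock gene, passed as higher in era1 at 2 mM, which was lost in 8 such refits (0.19 to 0.31). The part of clock state in the dose and genotype comparisons was not tested. Reads without a unique alignment made up 4.34% to 5.33% of records in era1 at 0 mM and 4.68% to 5.11% in WT at 0 mM. At 10 mM they made up 2.31% to 2.81% in era1 and 1.89% to 2.30% in WT.

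Without nitrate the era1 rosettes held more transcript of 7 of the 10 core genes than WT rosettes: ATG2, ATG3, ATG6, ATG7, ATG9, ATG18A and NBR1. The increases ran from 1.38-fold for ATG6 to 1.47-fold for ATG3. None of the 10 was lower. Of all tested genes 49.1% were called in that comparison, 24.5% higher and 24.6% lower. The fold changes were positive for all 10 genes, with a median of 0.50 on the log2 scale, against 0.02 over all tested genes, of which 52.1% were positive. Calls here and throughout are genes with a Benjamini-Hochberg adjusted p (FDR) under 0.05 in edgeR's quasi-likelihood test, and errors of log2 fold changes are SE. In bulk rosettes, fewer cells of a type and less RNA per cell cannot be told apart. At 2 mM none of the 10 was called (all genes: 22%, with 10.9% higher and 11.1% lower). At 10 mM ATG18A alone was called, lower in era1 (all genes: 29.7%, with 15.4% higher and 14.3% lower).

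**Figure D1:**
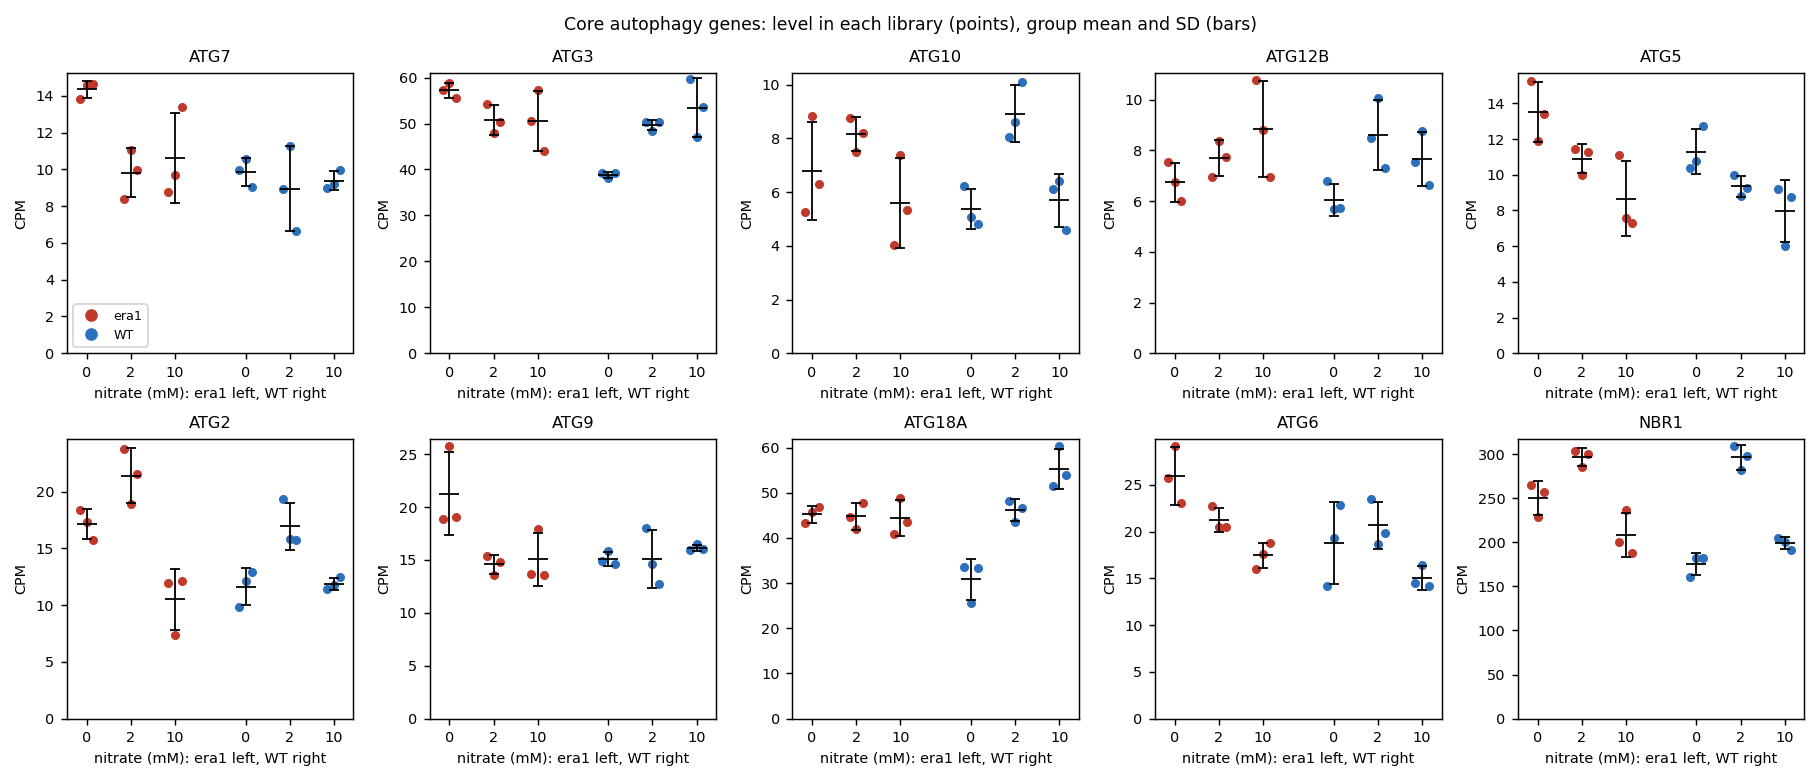
Level of each of the 10 genes in CPM (vertical axis, from 0) at each nitrate dose in mM (horizontal axis), with era1 in red on the left and WT in blue on the right. Points are libraries and bars are the mean and SD of 3; for ATG3 and ATG18A the WT libraries at 0 mM lie below all other libraries.

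The conjugation cascade begins with ATG7 (AT5G45900), the E1-like enzyme that activates ATG8 and ATG12. It lies on chromosome 5 at 18615175 to 18618597, plus strand, in TAIR10.1. ATG7 had 13.8, 14.6 and 14.7 CPM in era1 at 0 mM, 8.40, 11.1 and 9.98 CPM at 2 mM and 8.76, 9.68 and 13.4 CPM at 10 mM. In WT it had 10.0, 10.6 and 9.04 CPM at 0 mM, 8.91, 11.3 and 6.67 CPM at 2 mM and 8.98, 9.19 and 9.98 CPM at 10 mM. The 3 era1 libraries at 0 mM were above all other libraries. ATG7 was higher in era1 than in WT at 0 mM (0.54 ± 0.17, FDR = 0.009). Within era1 it was higher at 0 than at 2 mM (0.55 ± 0.16, FDR = 0.00711) and at 0 than at 10 mM (0.44 ± 0.16, FDR = 0.024). The last call was lost without era1 libraries 2 or 3 at 0 mM (log2 0.43 and 0.42) or 1 or 2 at 10 mM (0.32 and 0.38), and with DESeq2 (0.45). In WT no dose comparison of ATG7 was called. ATG7 gave 31 to 93 counts per library.

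SAG12, a cysteine protease gene that marks late leaf senescence, ends 211 bases upstream of ATG7 on the same strand. Its level was 132, 68.6 and 98.2 CPM in era1 at 0 mM, 9.29, 9.63 and 1.13 CPM at 2 mM and 35.2, 8.63 and 35.5 CPM at 10 mM. In WT it was 0, 0.196 and 2.95 CPM at 0 mM, 0, 0 and 8.18 CPM at 2 mM and 0, 0.428 and 0.208 CPM at 10 mM. The era1 libraries at 0 mM were thus above every other library for both neighbours, and the part of SAG12 in the ATG7 result was not tested.

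ATG3 (AT5G61500; chromosome 5, 24733785 to 24736876, minus strand) is the E2-like enzyme that passes ATG8 to phosphatidylethanolamine. It had 57.2, 58.8 and 55.7 CPM in era1 at 0 mM, 54.3, 47.9 and 50.2 CPM at 2 mM and 50.5, 57.2 and 44.1 CPM at 10 mM. The WT libraries had 39.2, 38.1 and 39.1 CPM at 0 mM, 50.4, 48.4 and 50.4 CPM at 2 mM and 59.8, 47.0 and 53.6 CPM at 10 mM. WT at 0 mM stood below every other group without overlap, and the era1 libraries at 0 mM overlapped those of era1 at 10 mM. ATG3 was 1.47-fold higher in era1 than in WT at 0 mM (log2 0.56 ± 0.10, FDR = 4.26e-05). Within WT it was lower at 0 than at 10 mM (-0.46 ± 0.10, FDR = 4.25e-04) and at 0 than at 2 mM (-0.36 ± 0.10, FDR = 0.00601). In era1 the corresponding values were 0.18 and 0.17, neither called. The era1 value of 0 against 10 mM passed as higher without era1 library 2 at 10 mM (0.27). The response to 0 against 10 mM differed between the genotypes by 0.64 ± 0.14, FDR = 7.92e-04. The 3′ end of ATG3 overlaps AT5G61490 on the opposite strand by 40 bases. That gene averaged 2.25 CPM in era1 and 0.196 CPM in WT at 0 mM, where ATG3 averaged 57.2 CPM in era1 and 38.8 CPM in WT.

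ATG10 (AT3G07525; chromosome 3, 2398951 to 2400603, minus strand) is the E2-like enzyme that joins ATG12 to ATG5. Its levels were 5.25, 8.82 and 6.31 CPM in era1 at 0 mM, 8.76, 7.49 and 8.21 CPM at 2 mM and 4.04, 7.40 and 5.35 CPM at 10 mM. In WT they were 6.22, 5.09 and 4.80 CPM at 0 mM, 8.04, 8.62 and 10.1 CPM at 2 mM and 6.12, 6.41 and 4.57 CPM at 10 mM. The 2 mM libraries were the highest in WT and were all above the 10 mM libraries in era1. ATG10 was higher at 2 than at 10 mM in WT (0.64 ± 0.23, FDR = 0.0179) and in era1 (0.55 ± 0.22, FDR = 0.0369), and lower at 0 than at 2 mM in WT (-0.73 ± 0.22, FDR = 0.0103). At 22 to 55 counts per library these calls were sensitive to single libraries and to the tool, and with DESeq2 the calls of 2 against 10 mM were lost in era1 (0.56) and in WT (0.64). The WT call of 2 against 10 mM was lost without WT library 3 at 10 mM (0.51) or 3 at 2 mM (0.54), and the WT call of 0 against 2 mM without WT library 3 at 2 mM (-0.62). The era1 call was lost without era1 libraries 1 or 3 at 10 mM (0.35 and 0.52) or 1 or 3 at 2 mM (0.49 and 0.54). The genotypes were not distinguished at any dose, with log2 values of 0.34, -0.13 and -0.03 at 0, 2 and 10 mM.

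ATG12B (AT3G13970; chromosome 3, 4613492 to 4614857, minus strand) encodes a ubiquitin-like ATG12. It had 7.52, 6.73 and 5.99 CPM in era1 at 0 mM, 6.97, 8.38 and 7.73 CPM at 2 mM and 10.8, 8.80 and 6.96 CPM at 10 mM. WT libraries had 6.79, 5.67 and 5.72 CPM at 0 mM, 8.48, 10.1 and 7.32 CPM at 2 mM and 7.55, 8.77 and 6.65 CPM at 10 mM. In every dose or genotype comparison the groups overlapped, except in WT at 0 against 2 mM, where ATG12B was lower at 0 mM (-0.51 ± 0.20, FDR = 0.0395). That call was lost without WT libraries 2 or 3 at 0 mM (-0.45 and -0.47), WT 1 or 2 at 2 mM (-0.50 and -0.37) or era1 1 at 0 mM (-0.47). It was also lost with no filter (-0.47), with the filter of 1 CPM in 3 libraries (-0.49), with only the groups compared (-0.49) and with DESeq2 (-0.49). In era1 0 against 10 mM gave -0.40 (FDR = 0.0653), short of the threshold, and it passed as lower without era1 library 3 at 10 mM (-0.54). ATG12B was one of 3 members, with ATG5 and ATG10, in which no genotype comparison was called.

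ATG5 (AT5G17290; chromosome 5, 5686135 to 5689947, minus strand) accepts ATG12 and, joined to it, acts as the E3-like factor of ATG8 lipidation. It had 15.2, 11.9 and 13.4 CPM in era1 at 0 mM, 11.4, 9.98 and 11.3 CPM at 2 mM and 11.1, 7.57 and 7.31 CPM at 10 mM. The WT libraries had 10.4, 10.8 and 12.7 CPM at 0 mM, 10.0, 8.83 and 9.26 CPM at 2 mM and 9.18, 5.99 and 8.73 CPM at 10 mM. In both genotypes the 3 libraries at 0 mM were above the 3 at 10 mM. ATG5 was higher at 0 than at 10 mM in era1 (0.63 ± 0.17, FDR = 0.00266) and in WT (0.50 ± 0.19, FDR = 0.0258), and the interaction was 0.13 ± 0.25, not called. The WT call was lost without WT library 3 at 0 mM (0.41), without WT library 2 at 10 mM (0.35) and with DESeq2 (0.51). In era1 2 against 10 mM gave 0.33 and was not called, and it passed as higher without era1 library 1 at 10 mM (0.55). ATG5 overlaps AT5G17280 on the opposite strand over 597 bases, which do not cover the 3′ end of ATG5. With the strand setting of the counting unknown, the part of AT5G17280 in the ATG5 values was not tested. AT5G17280 averaged 41.9 CPM in era1 and 38.8 CPM in WT at 0 mM and 32.0 CPM in era1 and 35.9 CPM in WT at 10 mM.

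Membrane supply to the growing vesicle involves ATG9, a transmembrane protein, ATG2, known in yeast and human cells as a lipid-transfer protein, and ATG18A, which belongs to a family that binds phosphatidylinositol 3-phosphate. In these 3 genes and in NBR1 the response to 0 against 10 mM differed between genotypes, and their upstream windows were free of other annotated genes. For that reason the 300 bases before each gene start are given, on the gene's strand and from RefSeq's TAIR10.1 assembly, with capitals marking matches to the 4 motifs searched. The windows are chr3:6639339-6639638 (plus strand) for ATG2, chr2:13327497-13327796 (minus strand) for ATG9, chr3:23221244-23221543 (minus strand) for ATG18A and chr4:12740732-12741031 (plus strand) for NBR1.
ATG2: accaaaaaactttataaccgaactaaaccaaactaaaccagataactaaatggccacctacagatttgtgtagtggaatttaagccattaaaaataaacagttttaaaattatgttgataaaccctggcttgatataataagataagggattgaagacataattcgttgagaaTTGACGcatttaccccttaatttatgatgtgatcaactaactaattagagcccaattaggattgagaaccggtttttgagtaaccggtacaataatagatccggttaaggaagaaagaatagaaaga
ATG9: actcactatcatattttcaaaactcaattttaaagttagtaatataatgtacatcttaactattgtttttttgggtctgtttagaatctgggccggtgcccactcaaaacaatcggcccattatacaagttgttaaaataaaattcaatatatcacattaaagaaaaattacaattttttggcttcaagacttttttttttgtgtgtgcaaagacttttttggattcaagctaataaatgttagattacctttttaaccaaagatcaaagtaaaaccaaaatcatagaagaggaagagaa
ATG18A: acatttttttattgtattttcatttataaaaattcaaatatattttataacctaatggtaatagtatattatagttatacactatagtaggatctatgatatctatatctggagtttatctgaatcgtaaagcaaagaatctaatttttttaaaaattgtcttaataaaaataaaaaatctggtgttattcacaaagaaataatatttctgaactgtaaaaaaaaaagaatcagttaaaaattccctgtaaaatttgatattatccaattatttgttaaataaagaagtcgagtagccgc
NBR1: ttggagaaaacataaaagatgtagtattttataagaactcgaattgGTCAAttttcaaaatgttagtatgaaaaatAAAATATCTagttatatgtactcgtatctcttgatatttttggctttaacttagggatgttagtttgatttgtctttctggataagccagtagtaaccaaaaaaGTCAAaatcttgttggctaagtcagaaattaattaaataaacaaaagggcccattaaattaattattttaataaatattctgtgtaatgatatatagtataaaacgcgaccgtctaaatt
The motifs, on both strands, were the TGA motif TGACG, the G-box CACGTG, the W-box core TTGAC and the evening element AAAATATCT of clock-controlled promoters. ATG2 held TTGAC from base -127 and TGACG from base -126, which overlap as TTGACG. NBR1 held GTCAA, the reverse complement of TTGAC, at bases -254 and -120 and the evening element at base -224. No letters of these motifs were found in the windows of ATG9 and ATG18A. Of 27443 windows of protein-coding genes, 21.3% held TGACG, 7.09% CACGTG, 50.4% TTGAC and 2.79% the evening element. Among the 10 core genes the numbers with a match were 4, 1, 5 and 1 in that order, counting windows that run into a neighbouring gene. A match describes letters and shows no binding.

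ATG2 (AT3G19190; chromosome 3, 6639639 to 6648870, plus strand), with the overlapping match above, had the widest span of group means, 2.04-fold. Its levels were 18.4, 17.3 and 15.8 CPM in era1 at 0 mM, 23.8, 18.9 and 21.6 CPM at 2 mM and 12.0, 7.40 and 12.1 CPM at 10 mM. The WT libraries had 9.81, 12.1 and 12.9 CPM at 0 mM, 19.3, 15.8 and 15.7 CPM at 2 mM and 11.4, 11.8 and 12.5 CPM at 10 mM. In era1 both 0 and 2 mM lay above 10 mM without overlap, while in WT 2 mM alone did. ATG2 was higher in era1 than in WT at 0 mM (0.56 ± 0.16, FDR = 0.00493). Within era1 it was higher at 2 than at 10 mM (1.03 ± 0.15, FDR = 4.32e-06) and at 0 than at 10 mM (0.70 ± 0.16, FDR = 5.49e-04). In WT it was higher at 2 than at 10 mM (0.51 ± 0.17, FDR = 0.0111), lower at 0 than at 2 mM (-0.54 ± 0.16, FDR = 0.00911), and had -0.03 at 0 against 10 mM. The interaction for 0 against 10 mM was 0.74 ± 0.24, FDR = 0.0169. The WT call of 2 against 10 mM was lost without WT library 1 at 2 mM (0.41), and that of 0 against 2 mM without WT library 1 at 0 mM (-0.41) or 1 at 2 mM (-0.42). In era1 0 against 2 mM gave -0.32 and was not called. It passed as lower without WT library 3 at 0 mM (-0.34), era1 library 2 at 10 mM (-0.32) or era1 library 2 at 2 mM (-0.40).

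ATG9 (AT2G31260; chromosome 2, 13321833 to 13327496, minus strand) stood out in era1 at 0 mM. It had 18.9, 25.8 and 19.1 CPM in era1 at 0 mM, 15.4, 13.5 and 14.8 CPM at 2 mM and 13.6, 18.0 and 13.6 CPM at 10 mM. WT had 14.9, 15.8 and 14.6 CPM at 0 mM, 18.0, 14.6 and 12.7 CPM at 2 mM and 15.9, 16.5 and 16.0 CPM at 10 mM. The 3 era1 libraries at 0 mM were above all others, and library 2 was the highest of them. At 0 mM ATG9 was higher in era1 than in WT (0.50 ± 0.14, FDR = 0.00598), and within era1 it was higher at 0 than at 10 mM (0.50 ± 0.14, FDR = 0.00432) and than at 2 mM (0.55 ± 0.14, FDR = 0.00243). Without era1 library 2 at 0 mM the genotype value was 0.33 and that of 0 against 10 mM 0.34, and neither was called. The interaction of 0.60 ± 0.21, FDR = 0.0297 was lost without that library (0.43), without era1 libraries 1 or 3 at 10 mM (0.53 each), without WT library 3 at 0 mM (0.57) or 2 at 10 mM (0.58), and with DESeq2 (0.59). No dose comparison in WT was called, with values between -0.10 and 0.00.

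ATG18A (AT3G62770; chromosome 3, 23218610 to 23221243, minus strand) varied with dose in WT, and no dose comparison in era1 was called. The era1 libraries had 43.2, 45.7 and 46.8 CPM at 0 mM, 44.7, 41.9 and 47.8 CPM at 2 mM and 40.9, 48.8 and 43.5 CPM at 10 mM. The WT libraries had 33.6, 25.6 and 33.4 CPM at 0 mM, 48.3, 43.5 and 46.7 CPM at 2 mM and 51.6, 60.3 and 54.1 CPM at 10 mM. The era1 groups overlapped each other, and the WT groups were separate and ordered by dose. In WT ATG18A was lower at 0 than at 10 mM (-0.84 ± 0.11, FDR = 3.88e-07), at 0 than at 2 mM (-0.58 ± 0.11, FDR = 8.88e-05) and at 2 than at 10 mM (-0.26 ± 0.10, FDR = 0.0321). In era1 the 3 dose values lay between 0.01 and 0.03. The genotypes differed in both directions: ATG18A was higher in era1 at 0 mM (0.55 ± 0.11, FDR = 1.21e-04) and lower in era1 at 10 mM (-0.32 ± 0.10, FDR = 0.019). Its interaction for 0 against 10 mM, 0.87 ± 0.15, FDR = 5.18e-05, was the largest of the 10 genes. The call at 10 mM was lost without WT library 2 (-0.26), era1 library 1 (-0.26) or era1 library 3 (-0.30) at that dose. The WT call of 2 against 10 mM was lost without WT library 2 at 10 mM (-0.19), without WT libraries 2 or 3 at 2 mM (-0.22 and -0.27), with upper quartile scaling (-0.23) and with DESeq2 (-0.27).

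**Figure D2:**
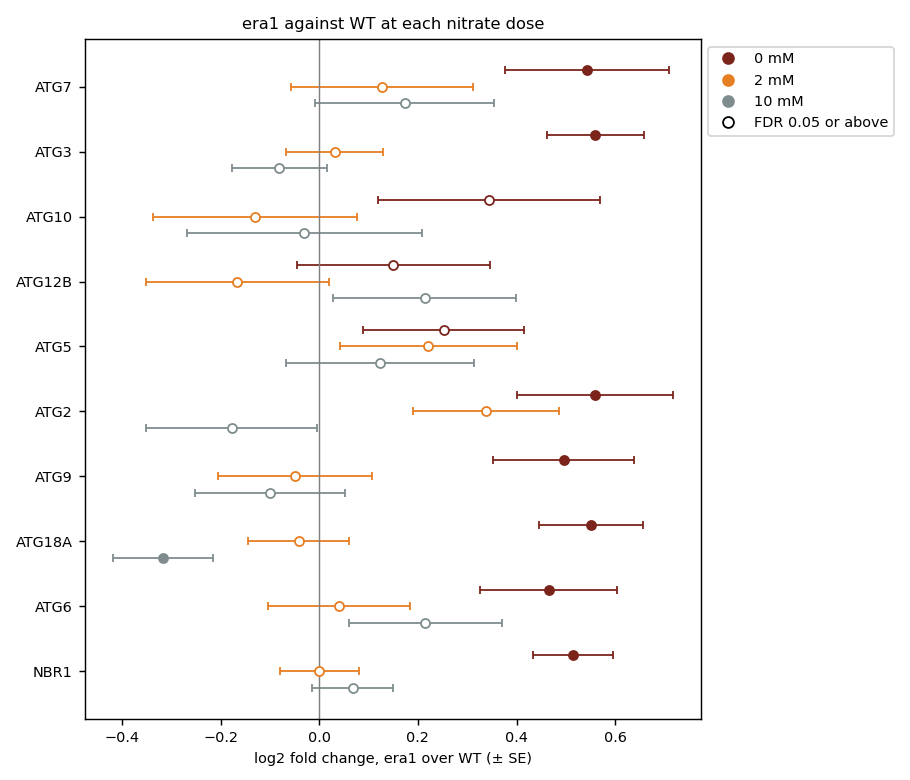
Log2 fold change of era1 over WT (horizontal axis, points with SE) for each of the 10 genes (vertical axis) at 0, 2 and 10 mM nitrate. Filled points have an FDR under 0.05; 7 genes do at 0 mM, none at 2 mM and ATG18A at 10 mM.

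Vesicle nucleation was represented by ATG6 (AT3G61710; chromosome 3, 22839232 to 22842446, minus strand), the plant counterpart of Beclin-1 in the phosphatidylinositol 3-kinase complex. It had 25.7, 29.2 and 23.0 CPM in era1 at 0 mM, 22.7, 20.5 and 20.4 CPM at 2 mM and 16.0, 17.6 and 18.7 CPM at 10 mM. In WT it had 14.1, 19.4 and 22.9 CPM at 0 mM, 23.5, 18.7 and 19.8 CPM at 2 mM and 14.5, 16.5 and 14.1 CPM at 10 mM. In era1 the doses did not overlap and ATG6 was highest at 0 mM, and the WT libraries at 0 mM were spread widely. ATG6 was higher in era1 than in WT at 0 mM (0.46 ± 0.14, FDR = 0.00726), but without WT library 1 at 0 mM the value was 0.29 and not called. Within era1 it was higher at 0 than at 10 mM (0.57 ± 0.14, FDR = 0.00107), and within WT at 2 than at 10 mM (0.46 ± 0.16, FDR = 0.0147). The WT call was lost without WT library 3 at 10 mM (0.41) or 1 at 2 mM (0.36). In WT 0 against 10 mM gave 0.32, short of the threshold, and it passed without WT library 1 at 0 mM (0.52) and with upper quartile scaling (0.36). In era1 2 against 10 mM was not called, and it passed without WT library 1 at 0 mM (0.30) and with only the groups compared (0.31). The era1 value of 0 against 2 mM, 0.29, was not called, and it passed without WT library 1 (0.31) or era1 library 3 (0.37) at 0 mM. The interaction of 0.25 ± 0.21 was not called.

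NBR1 (AT4G24690; chromosome 4, 12741032 to 12744670, plus strand) is the receptor that binds ubiquitinated cargo and ATG8 and is itself broken down by autophagy. With 853 to 1867 counts per library it was the best measured of the 10. NBR1 had 265, 228 and 257 CPM in era1 at 0 mM, 304, 285 and 301 CPM at 2 mM and 201, 237 and 189 CPM at 10 mM. The WT libraries had 161, 182 and 182 CPM at 0 mM, 310, 282 and 299 CPM at 2 mM and 205, 201 and 191 CPM at 10 mM. The 2 mM libraries were the highest in both genotypes and overlapped between them, and at 0 mM all era1 libraries were above all WT libraries. At 2 mM NBR1 was higher than at 10 mM in era1 (0.51 ± 0.08, FDR = 9.38e-06) and in WT (0.58 ± 0.08, FDR = 1.64e-06), and the genotypes differed by 0.00 ± 0.08. At 0 mM it was 1.43-fold higher in era1 than in WT (log2 0.51 ± 0.08, FDR = 1.17e-05). Relative to 10 mM, NBR1 at 0 mM was higher in era1 (0.26 ± 0.08, FDR = 0.0081), although libraries overlapped and the call was lost without era1 library 3 at 10 mM (0.19). In WT it had -0.18 (FDR = 0.0631), which passed without era1 library 2 at 0 mM or 2 at 10 mM (-0.19 each). The interaction was 0.45 ± 0.12, FDR = 0.00391.

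NBR1 at 0 mM was lower than at 2 mM in era1 (-0.25 ± 0.08, FDR = 0.0128), a call lost without era1 library 2 at 0 mM (-0.18), and in WT (-0.76 ± 0.08, FDR = 2.25e-08). Its 3′ end overlaps AT4G24700 on the opposite strand by 101 bases. That gene averaged 30.2, 4.07 and 16.0 CPM in era1 and 38.6, 4.73 and 19.3 CPM in WT at 0, 2 and 10 mM. With the strand setting unknown, its part in the NBR1 values was not tested. The high level of NBR1 at 2 mM came from the libraries in which CCA1 was lowest, and clock and dose cannot be told apart there.

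In era1 at 0 against 10 mM, 6 of the 10 were higher (ATG2, ATG5, ATG6, ATG7, ATG9 and NBR1) and none was lower, where 55.6% of all tested genes were called, 27.5% higher and 28% lower. In WT 1 was higher (ATG5) and 2 were lower (ATG3 and ATG18A), against 26.9% and 26.7% of all genes (53.6% in both directions). The medians over the 10 were 0.36 in era1 and -0.09 in WT. The interaction was positive and called for 5 genes (ATG2, ATG3, ATG9, ATG18A and NBR1) and negative for none, against 15.6% and 19.3% of all genes (34.9% in both directions). ATG3 and ATG18A fell in WT and were not called in era1, ATG2 and ATG9 rose in era1 and were not called in WT, and NBR1 rose in era1 and was not called in WT.

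At 2 against 10 mM, 3 members were higher in era1 (ATG2, ATG10 and NBR1) and none lower, against 25.5% and 26.5% of all genes (52% in both directions). In WT 4 were higher (ATG2, ATG6, ATG10 and NBR1) and 1 was lower (ATG18A), against 28.8% and 28.3% (57.1% in both directions). No interaction was called for 2 against 10 mM, where 15.8% of all genes were called, 7.71% positive and 8.08% negative. There 1 member had an unadjusted p under 0.05, and DESeq2 called 0. The same held for era1 against WT at 2 mM, with 1 member at an unadjusted p under 0.05 and 0 by DESeq2. At 0 against 2 mM, ATG7 and ATG9 were higher and NBR1 was lower in era1 (all genes: 23.7% higher and 26% lower, 49.7% in both directions). In WT at 0 against 2 mM, 6 were lower (ATG2, ATG3, ATG10, ATG12B, ATG18A and NBR1) and none was higher (all genes: 22.1% lower and 20.3% higher, 42.4% in both directions).

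**Figure D3:**
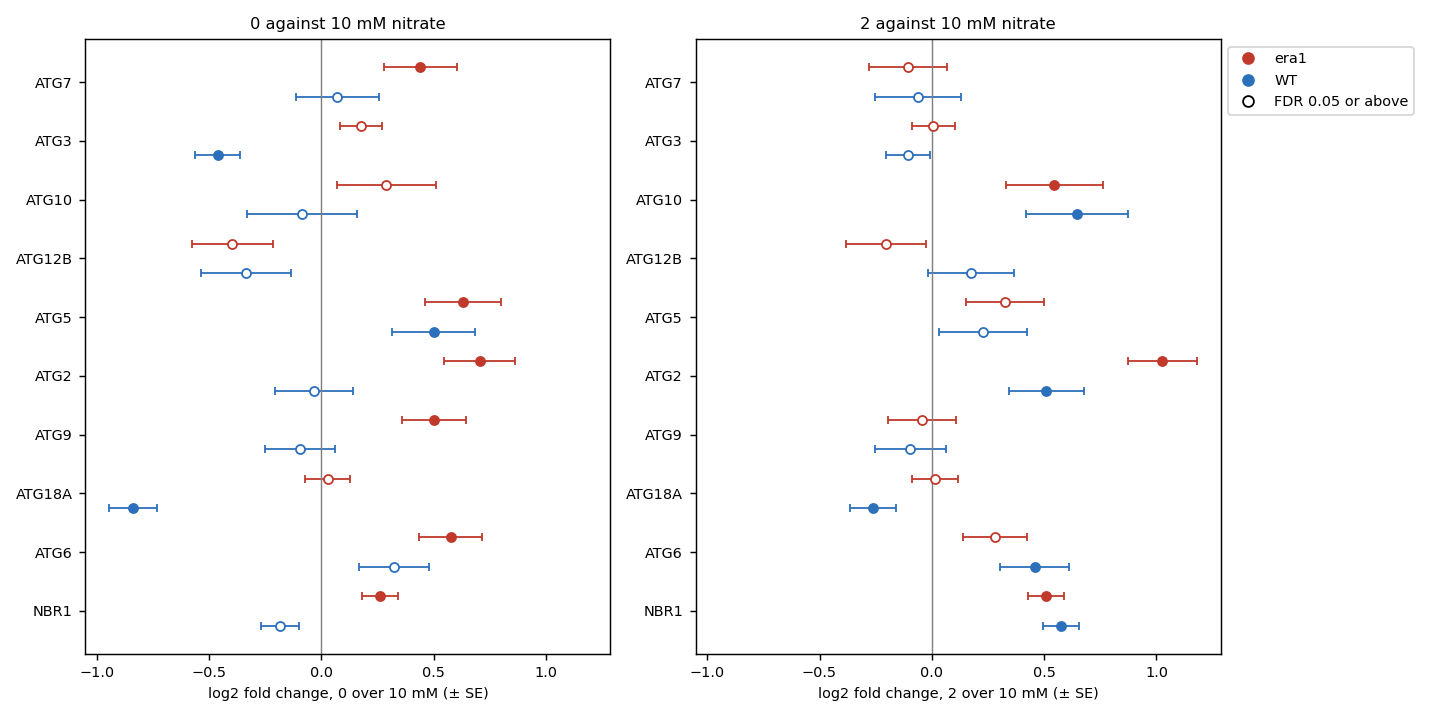
Log2 fold change (horizontal axis, points with SE) of 0 over 10 mM nitrate (left panel) and of 2 over 10 mM (right panel) for each of the 10 genes, with era1 in red above WT in blue; filled points have an FDR under 0.05. At 0 against 10 mM the filled era1 points lie to the right of zero and the WT points of ATG3 and ATG18A to the left.

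Averaged over the 3 doses, 5 members were higher in era1 (ATG2, ATG3, ATG6, ATG7 and NBR1) and none lower, against 23.8% and 23.3% of all genes (47.1% in both directions). None of these 5 was called at 2 mM or at 10 mM alone. NBR1 (0.19 ± 0.05, FDR = 0.00137) and ATG3 (0.17 ± 0.06, FDR = 0.0156) were called in every refit without a single library and by DESeq2. Their averages came mostly from 0 mM: at 0, 2 and 10 mM NBR1 had 0.51, 0.00 and 0.07, and ATG3 had 0.56, 0.03 and -0.08. ATG7 (0.28 ± 0.10, FDR = 0.0269) lost its call without WT library 3 at 0 mM (0.26), WT library 3 at 2 mM (0.22), era1 library 3 at 10 mM (0.22) or era1 library 2 at 2 mM (0.25), and ATG6 (0.24 ± 0.08, FDR = 0.0217) without WT library 1 at 0 mM (0.18). ATG2 (0.24 ± 0.09, FDR = 0.0361) lost its call in 9 of 18 such refits, with values of 0.20 to 0.23: without WT 1 at 0 mM, WT 1 or 2 at 10 mM, WT 2 or 3 at 2 mM, era1 1 at 0 mM, era1 1 or 3 at 10 mM, or era1 1 at 2 mM. With DESeq2 the values of ATG2, ATG6 and ATG7 were 0.23, 0.23 and 0.27, and none was called.

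The rest of the pathway and its upstream regulators were read from 38 further genes, 36 of which were tested. At 0 mM, 23 of the 36 were higher in era1 than in WT and none was lower, with a median of 0.41 (all genes: 24.5% higher and 24.6% lower, median 0.02). All 4 genes read of the initiation kinase complex, whose ATG1 kinases were not analysed here, were higher: ATG101 (0.80 ± 0.12), which stabilises the complex, AT3G18770, annotated as an ATG13 (0.58 ± 0.14), ATG11 (0.43 ± 0.09) and ATG13 (0.32 ± 0.12). The ATG13 call was lost without WT libraries 1 or 2 (0.25 and 0.33) or era1 libraries 1 or 3 (0.30 and 0.29) at 0 mM, and with no filter, with only the groups compared and with DESeq2 (0.30 to 0.31). Of the partners of ATG6 in the lipid kinase, the catalytic subunit VPS34 (0.58 ± 0.12) and the regulatory subunit VPS15 (0.61 ± 0.15) were higher, and ATG14 and VPS38 were not analysed here. Among the paralogs of members, ATG12A was higher (0.44 ± 0.12), as were 2 of 6 ATG18 genes, ATG18G (0.39 ± 0.10) and ATG18H (0.42 ± 0.12).

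Of the 9 ATG8 genes, which encode the protein that ATG7 and ATG3 process, 7 were higher in era1 at 0 mM, led by ATG8G (1.26 ± 0.14) and ATG8B (1.14 ± 0.10). ATG8E (-0.02) and ATG8H (0.21) were not called. Among 7 other receptors and linked factors, ATI1 (0.46 ± 0.12), ATI2 (0.66 ± 0.08), DSK2B (0.37 ± 0.09) and RPN10 (0.20 ± 0.08) were higher. The RPN10 call was lost without any 1 of 8 libraries, the 6 at 0 mM, WT 2 at 10 mM and WT 1 at 2 mM, with values of 0.16 to 0.22. It was also lost with RLE scaling, no filter, only the groups compared, no 2 mM libraries and DESeq2 (0.18 to 0.19). Of 7 upstream regulators tested, 3 were higher: HY5 (0.99 ± 0.10), a light-signalling transcription factor, KIN10 (0.47 ± 0.11), a catalytic subunit of the energy sensor SnRK1, and RAPTOR1B (0.27 ± 0.09), a subunit of the TOR complex. The RAPTOR1B call was lost without WT libraries 1 or 2 (0.25 and 0.24) or era1 library 2 (0.23) at 0 mM. TOR itself had 0.23 and was not called. ATG18C passed without WT library 1 at 0 mM (0.65), and KIN11, another catalytic subunit of SnRK1, passed without era1 library 3 at 0 mM (0.24) or era1 library 2 at 10 mM (0.19). The interaction for 0 against 10 mM was called for 19 of these 36 genes, positive in 18 (all genes: 34.9%, with 15.6% positive and 19.3% negative).

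**Figure D4:**
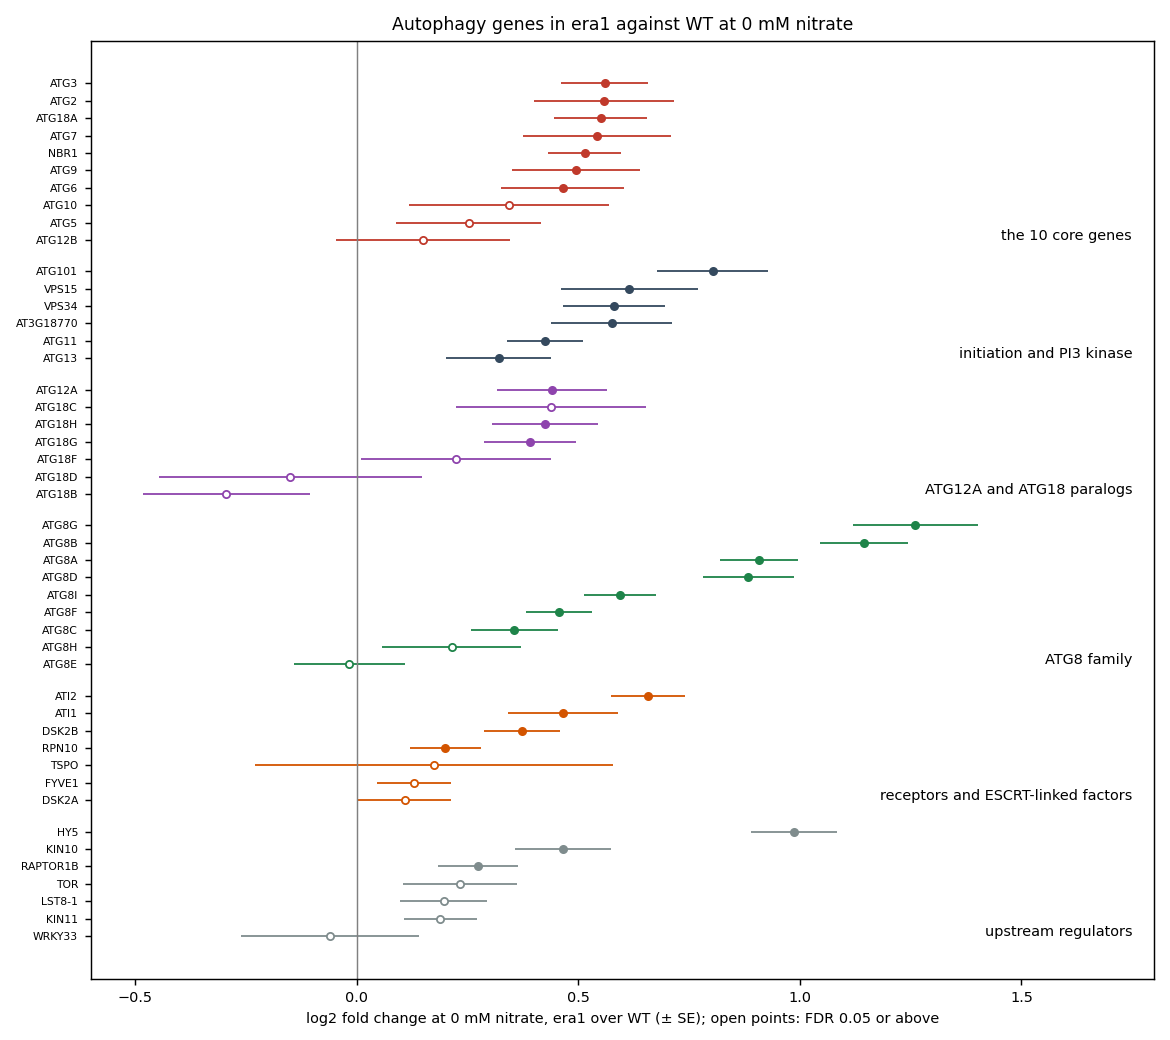
Log2 fold change of era1 over WT at 0 mM nitrate (horizontal axis, points with SE) for the 10 core genes and 36 other autophagy genes and regulators, grouped by role down the vertical axis. Filled points have an FDR under 0.05; all filled points, 7 core genes and 23 others, lie to the right of zero.

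Markers of tissue state also differed between the genotypes, at 0 mM and at the other doses. The 7 rosette leaf markers, nuclear genes of photosynthesis and photorespiration, were detected in every group. Their summed level was 8380 to 9581 CPM in era1 and 16331 to 18015 CPM in WT at 0 mM, and all 7 were lower in era1 with a median of -0.89. At 2 mM the sum was 13624 to 14149 CPM in era1 and 17030 to 17743 CPM in WT, with 6 of 7 lower. At 10 mM it was 11904 to 12750 CPM in era1 and 14328 to 14733 CPM in WT, with 4 of 7 lower. Of all genes, 24.6%, 11.1% and 14.3% were lower in era1 at 0, 2 and 10 mM.

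The senescence marker SAG12 was higher in era1 at 0 mM (6.51 ± 0.67, FDR = 1.65e-08) and at 10 mM (FDR = 5.53e-05), where the WT libraries held next to no counts. At 2 mM SAG12 was not called (1.27, FDR = 0.351). The 7 floral markers summed to 3.32 to 9.94 CPM in era1 and 3.21 to 3.72 CPM in WT at 0 mM, and these ranges overlapped. AG, the 1 floral marker that was tested, was not called at 0 mM (-0.41) or 2 mM (-0.20). It was lower in era1 at 10 mM (-2.40, FDR = 0.00114), on 9 counts in era1 and 41 in WT. The 4 root markers summed to 7.57 to 15.6 CPM in era1 and 22.1 to 32.8 CPM in WT at 0 mM, and 2 of them had no counts in era1 and 1 in WT. The root marker PYK10 made up most of these sums, with means of 10.4 CPM in era1 and 24.7 CPM in WT at 0 mM. The part of the marker differences in the autophagy result was not tested.

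**Figure D5:**
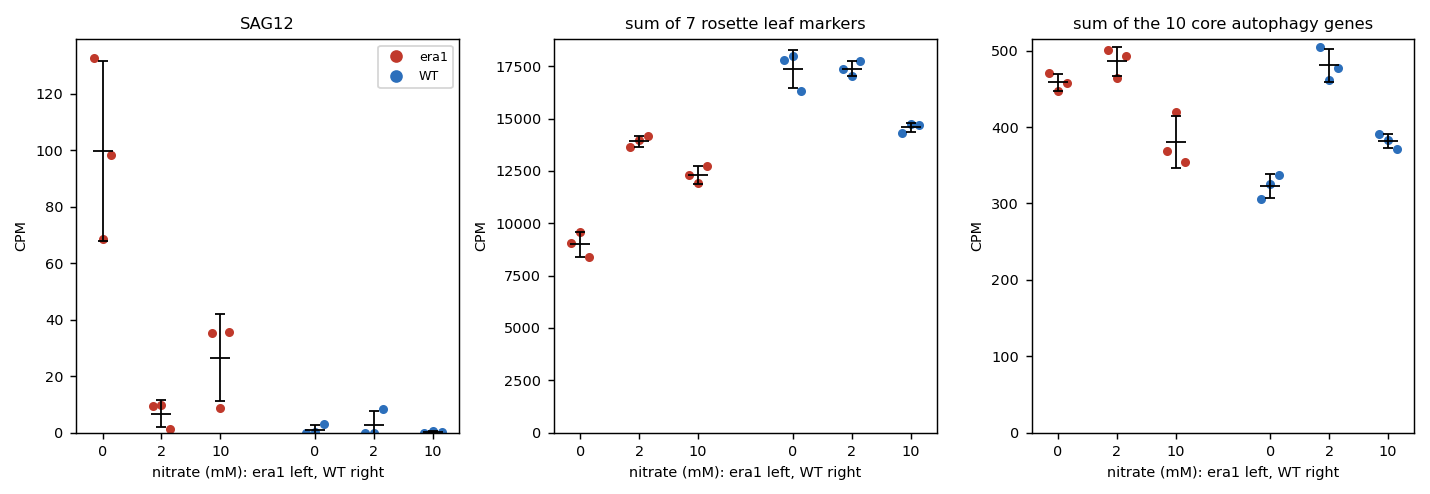
Levels in CPM (vertical axes, from 0) of SAG12, of the sum of 7 rosette leaf markers and of the sum of the 10 core autophagy genes at each nitrate dose in mM (horizontal axes), with era1 in red on the left and WT in blue on the right. Points are libraries and bars are the mean and SD of 3. At 0 mM the core genes summed to 470, 447 and 458 CPM in era1 and 306, 325 and 338 CPM in WT. NBR1 made up most of these sums, with means of 250 CPM in era1 and 175 CPM in WT at 0 mM.

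For the 7 members whose group means spanned at least 1.5-fold, the genes with the most similar profile were sought among named genes with a mean of at least 5 CPM. Likeness was the root mean square difference of centred log2 levels over the 6 groups. Nearest to NBR1 were EIN3 (0.061 log2), DCP2 (0.063) and CKL2 (0.070), and nearest to ATG2 were OBE1 (0.060), WES1 (0.068) and CPK5 (0.070). The closest to ATG6 were URE (0.043), UBC8 (0.045) and UBP14 (0.053), and to ATG5 ABI1 (0.045), ARPC3 (0.049) and UPL6 (0.049). ATG7 lay nearest to ARGAH1 (0.055), CKB4 (0.058) and PEX19-2 (0.062), ATG10 to TLP2 (0.057), PEX6 (0.070) and HAC5 (0.071), and ATG18A to LIS (0.054), FCA (0.075) and PLDGAMMA2 (0.077). None of these was another member of the set. The search ran over all named genes at that level, so it does not compare the members with one another.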

How the data were processed

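Per the labels' protocols, polyA RNA of 18 rosette samples went into stranded single-end QuantSeq 3′ libraries. The submitters' processing notes name TopHat2 and TAIR10. Not given in the sources used here: versions, annotation and the strand setting of the counting. The authors deposited raw counts per gene for each library, without normalization; summary counters that name no gene were left out (outside genes 3.75% to 5.72% of records, not unique 1.89% to 5.33%, ambiguous 0.116% to 0.141%). Replicate pairs differed by more than sampling noise (chi-square per degree of freedom 1.50 to 4.44, genes with at least 20 counts).

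Counts were tested in R 4.3.3 with edgeR 4.0.16 (glmQLFit, glmQLFTest), TMM scaling and filterByExpr by group (minimum count 10, minimum total 15), in 1 model of 6 groups over 18 libraries. The 12 contrasts compared the doses pairwise in either genotype (6), the genotypes at single doses (3) and over the doses together, and the dose responses between genotypes (0 or 2 against 10 mM). FDR is Benjamini-Hochberg over 18358 genes per contrast, at 0.05, and the SE is the log2 fold change divided by the square root of F. On simulated counts for WT at 0 against 10 mM (18078 genes), the share of changed genes recovered was 50.7% at 1.5-fold, 83.6% at 2-fold and 100% at 4-fold, and 8 of 17879 unchanged genes were called. Only 67, 67 and 66 genes were changed at these folds, whereas 53.6% of genes were called in the real comparison. The FDR cut-off therefore fell elsewhere, and the recovered shares do not carry over to these data. The members gave 22 to 1867 counts per library, so the low ones are the least precise.

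All 10 members are named. The lists are written under their roles, and of 51 further genes written, 38 were kept because RefSeq carries the name; the others, among them the ATG1 kinases, ATG4, ATG14, ATG16 and VPS38, were not analysed here. The members and lists were chosen with earlier results of these data known. The 3 genes most alike were taken for each member spanning 1.5-fold. Coordinates and windows came from RefSeq's TAIR10.1, whose 5 nuclear chromosomes have the lengths of TAIR10. Alternatives were RLE and upper quartile scaling, no filter or 1 CPM in 3 libraries, a replicate block, the groups compared alone, DESeq2 1.42.0, each library left out and, added after the data had been seen, a fit without the 2 mM libraries.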

Additional observations from a re-analysis of the deposited data

Results flagged for a closer look

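The response to 0 against 10 mM nitrate differed between era1 and WT, by the interaction term of the edgeR model at an FDR under 0.05, for 5 core genes (all genes: 34.9%, with 15.6% positive and 19.3% negative). On the log2 scale, as era1 minus WT, it was 0.87 for ATG18A, 0.74 for ATG2, 0.64 for ATG3, 0.60 for ATG9 and 0.45 for NBR1. The same interaction was called in 19 of 36 other pathway genes, against the same 34.9% of all genes. It was 0.98 for ATG101, 0.69 for ATG13, 0.54 for AT3G18770, 0.90 for VPS34 and 0.65 for ATG12A. In the ATG8 family it was 1.13 for ATG8B, 0.88 for ATG8D, 0.82 for ATG8G, 0.69 for ATG8A, 0.52 for ATG8C, 0.43 for ATG8I and 0.41 for ATG8F. Among receptors and linked factors it was 0.66 for ATI2, 0.49 for FYVE1 and 0.38 for DSK2B, and -1.72 for TSPO, the single negative value. Among regulators it was 1.32 for WRKY33, 0.90 for HY5 and 0.31 for KIN11.

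For 2 against 10 mM, the interaction was called in 5 of 36 other pathway genes and in no core gene, against 15.8% of all genes (7.71% positive and 8.08% negative). It was 2.77 for WRKY33, 0.56 for ATG8B and 0.37 for FYVE1, and -0.58 for ATG18H and -0.40 for RAPTOR1B.

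Several of these interactions lost their call in refits without a single library. For 0 against 10 mM, DSK2B lost its call without era1 library 3 (0.31) or WT library 2 (0.32) at 10 mM. TSPO lost it without era1 library 2 at 10 mM (-1.34), WT library 1 at 0 mM (-1.46) or WT library 3 at 10 mM (-1.43), and with DESeq2 (-1.74). AT3G18770 lost it in 13 of 18 refits without a single library (0.48 to 0.56), and KIN11 in 10 (0.25 to 0.32). For 2 against 10 mM the call was lost in 7 of 18 such refits for ATG18H (-0.58 to -0.44), 7 for FYVE1 (0.28 to 0.37) and 8 for RAPTOR1B (-0.41 to -0.28). Genes that passed in such refits and not otherwise were LST8-1 (0.33 to 0.39) and ATG18D (-1.02) for 0 against 10 mM, and ATG18D (-1.15) and ATG12A (0.56) for 2 against 10 mM. The interaction of ATG9 was lost without 5 single libraries and with DESeq2.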

How the results depend on the processing

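Of the 120 member values (10 genes in 12 comparisons), none changed sign as a called value under any alternative. With RLE scaling and with the replicate block, every one kept its call; for ATG3 in era1 against WT at 0 mM the main value was 0.56. Among the other pathway genes the block ended the call of RPN10 at 0 mM (0.20) and the interactions for 0 against 10 mM of AT3G18770 (0.54) and KIN11 (0.31). The replicate numbers did not pair the libraries: same-numbered libraries deviated from their group means with correlations of -0.08 to 0.16, not over 0.1 for all 3 numbers in any comparison. Upper quartile scaling changed 2 calls, no filter 1, the filter of 1 CPM 1, the groups compared alone 2 and DESeq2 10, and the fit without the 2 mM libraries changed none of 50. The count of members called at WT 2 against 10 mM was 5, with 3 by DESeq2 and 3 to 5 on leaving out single libraries. For era1 against WT averaged over doses it was 5, with 2 by DESeq2 and 3 to 5 on leaving out single libraries, and for era1 against WT at 10 mM it was 1, with 0 to 1. Over all genes the calls in these comparisons numbered 10490, 8646 and 5457, in that order. Leaving out single libraries gave 9500 to 10639, 8196 to 8683 and 4108 to 5651. The cause of these changes in counts was not tested. A fit without a library also holds fewer samples. By total gene counts in place of TMM, 51 of 60 group levels moved by less than their SD and 9 by more. At 22 to 93 counts per library, ATG5, ATG7, ATG10 and ATG12B were the least precisely measured.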
